A study of Rattus norvegicus with 4 samples.

Results

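Neural cells recognise each other and their neighbours through surface proteins built from immunoglobulin domains, and 10 genes of this kind were followed in cultured olfactory ensheathing cells of the rat: Ncam1, L1cam, Chl1, Nrcam, Nfasc, Cntn1, Cntn2, Alcam, Mcam and Thy1. They were found on the array by gene symbol, after the endings for predicted and mapped genes were removed from the names. All 10 were present, with 16 probes of 60 bases among 41012 probes in all, and 14 of the 16 probes were tested after a filter on dim probes that left 36746. Cultures of olfactory mucosa and of olfactory bulb, both from male Fischer rats and grown by the same protocol, were hybridised together on 4 two-channel arrays, mucosa RNA in Cy5 and bulb RNA in Cy3. Each array was 1 of 4 biological replicates with its samples paired, and the age of the animals is not given in the labels. The RNA of both groups was amplified by a global PCR before labelling. The dyes had the same orientation on all 4 arrays, so an effect of the dye and of the tissue of origin cannot be told apart.

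As background, ensheathing cells are the glia that enwrap olfactory axons on their way from the nasal mucosa into the bulb, and they share many genes with Schwann cells. The L1 family (L1cam, Chl1, Nrcam and Nfasc) spans the membrane and binds ankyrins inside the cell and other adhesion molecules outside it. Ncam1 binds itself on neighbouring cells and can carry polysialic acid, which loosens adhesion. The contactins Cntn1 and Cntn2 and the small glycoprotein Thy1 are held in the membrane by a lipid anchor. Alcam and Mcam belong to a separate group of immunoglobulin-type receptors that also occur on vascular and mesenchymal cells, and Thy1 is found on neurons and on many fibroblasts.

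Some of the probes that carry the results below are printed 5′ to 3′ in lower case throughout, as no stretch is singled out. Chl1 probe c and Alcam probe b, which were also called, are not printed. They are designed sequences of the array, with letters for the probes of a gene that has several. The first 5 lines are called probes and the last 3 are probes without a call.
Thy1: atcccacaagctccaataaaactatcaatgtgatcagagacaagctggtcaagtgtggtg
Chl1 probe a: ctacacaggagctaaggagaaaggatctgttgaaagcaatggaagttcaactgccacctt
Chl1 probe b: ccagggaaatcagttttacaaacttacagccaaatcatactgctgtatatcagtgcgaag
Alcam probe a: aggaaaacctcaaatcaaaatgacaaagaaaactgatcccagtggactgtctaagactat
Mcam probe b: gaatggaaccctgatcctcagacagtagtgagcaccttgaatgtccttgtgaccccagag
Ncam1: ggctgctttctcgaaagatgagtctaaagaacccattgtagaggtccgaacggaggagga
Nrcam probe b: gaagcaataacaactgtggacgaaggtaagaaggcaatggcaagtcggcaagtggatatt
Nrcam probe c: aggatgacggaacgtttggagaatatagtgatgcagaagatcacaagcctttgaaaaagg

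Among these adhesion molecules, Thy1 was higher in mucosa cells and Chl1, Alcam and Mcam were lower, while Ncam1, L1cam, Nrcam, Nfasc and Cntn1 did not pass the test. Of the 14 tested probes, 1 was higher and 6 lower by limma at a Benjamini-Hochberg adjusted p below 0.05, with adjustment over all tested probes. That is 50% of the tested member probes, against 6.54% of all tested probes (3.13% higher and 3.42% lower). The median log2 ratio, mucosa over bulb, was -0.71 over the 14 probes and -0.0040 over all tested probes. Intensities of the mucosa and the bulb channels did not overlap for 8 member probes, against 20.7% of all tested probes. Without any 1 of the 4 arrays the lower calls fell to 3, and these were the 3 probes of Chl1 each time, while Thy1 was called each time.

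**Figure D1:**
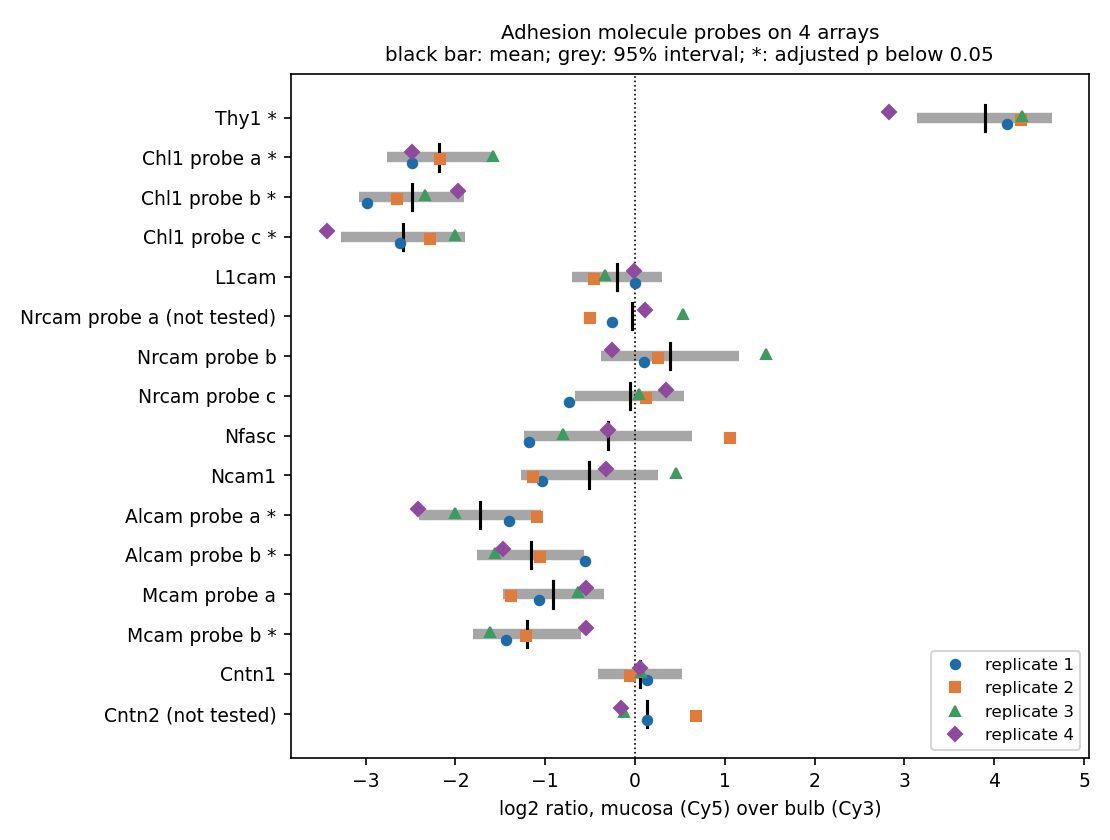
Log2 ratio, mucosa (Cy5) over bulb (Cy3), of the 16 probes of the 10 genes, with a symbol for each replicate array, a black bar for the mean, a grey bar for the 95% interval of the tested probes and an asterisk for an adjusted p below 0.05. Thy1 lies to the right of 0 on all 4 arrays at a mean of 3.90, and the 3 Chl1 probes lie near -2.18, -2.48 and -2.58. The L1cam, Nfasc and Ncam1 means are -0.20, -0.31 and -0.51, without a call, each with 1 array above 0. The Nrcam and contactin probes scatter around 0.

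Thy1, the lipid-anchored surface glycoprotein, had the largest difference of the 10 genes. Its intensity after loess and quantile normalization was 12414, 9615, 20428 and 10987 in mucosa cells on arrays 1 to 4, against 702, 488, 1031 and 1544 in bulb cells. Every mucosa value was above every bulb value, and the bulb value of array 4 was the highest of the 4 bulb values. The log2 ratio was 3.90 ± 0.71 (SD, n = 4), or 14.9-fold, with a 95% interval of 3.14 to 4.65 and an adjusted p of 0.00309 by limma. Only 0.174% of all tested probes had a larger absolute ratio. Array 4 stood apart at 2.83, while the other arrays lay between 4.14 and 4.31, and without array 4 the mean was 4.25 (adjusted p = 0.0122 by limma; range over 20 alternative settings 0.000545 to 0.0310). The probe lies at chr8:47031186-47031646 of the rn4 build on the plus strand, a span of 461 bases for 60 bases of sequence, so its target is split by an intron. It is the only Thy1 probe of the array, so no second probe could be set beside it.

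Markers of other cell types were set beside Thy1, and they did not all move with it. Over all tested probes, 3.13% were higher and 3.42% lower in mucosa cells. Of 17 tested probes of fibroblast markers, 8 were higher and 4 lower in mucosa cells, and of 8 tested probes of smooth muscle and pericyte markers 6 were higher and 0 lower. The mean log2 level over the fibroblast probes lay between 13.20 and 13.34 on the mucosa channels, against 12.40 to 13.04 on the bulb channels. For the smooth muscle and pericyte probes it lay between 11.84 and 12.17 in mucosa, against 10.23 to 10.83 in bulb. The defining fibroblast markers did not move as a group: the 3 probes of the collagen gene Col1a1 were higher, Pdgfra, a growth factor receptor gene, did not pass, and Dcn, which encodes decorin, was lower. Of 12 tested probes of neuronal markers, 0 were higher and 3 lower, and the 2 tested probes of T cell markers had no call. The part of these cells in the Thy1 result was not tested. In such bulk cultures fewer cells of a type and less RNA per cell cannot be told apart.

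In the L1 family, Chl1, the close homolog of L1, was lower in mucosa cells by all 3 of its probes. Probe a had intensities of 3558, 4538, 5040.0 and 2539 in mucosa cells, against 19964, 20471, 15062 and 14179 in bulb cells. Probe b had 643, 640.0, 556 and 754 in mucosa cells, against 5069, 4016, 2816 and 2946 in bulb cells. Probe c had 1649, 1535, 1774 and 751 in mucosa cells, against 10088, 7480.1, 7124 and 8075 in bulb cells. No mucosa value reached a bulb value at any of the 3 probes. The log2 ratios were -2.18 ± 0.43, -2.48 ± 0.43 and -2.58 ± 0.62 (SD, n = 4), or 4.53-fold, 5.59-fold and 5.99-fold lower in mucosa cells. Their adjusted p by limma was 0.00684, 0.00473 and 0.00682, and stayed below 0.05 in each of the settings tried, at most 0.0497. The probes share a transcript, so they are repeated readings of 1 gene and not separate replicates. They differed among themselves by 0.10 to 0.40 on the log2 scale, in paired comparisons whose exact sign-flip p was 0.125 to 1, where 4 arrays cannot go below 0.125 (two-sided). The files give no genome position for the Chl1 probes.

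The 3 other genes of the L1 family did not pass. L1cam, the founding member and a marker of growing axons and non-myelinating Schwann cells, had intensities of 4388, 3623, 3172 and 4824 in mucosa cells, against 4374, 4974, 4013 and 4865 in bulb cells. Its channels overlapped, and its log2 ratio was -0.20 ± 0.23 (SD, n = 4; 95% interval -0.70 to 0.30; adjusted p = 0.594 by limma, range over alternatives 0.467 to 0.910). The interval therefore still allowed a mucosa level lower by 0.70 on the log2 scale. Nrcam, which takes part in the assembly of nodes of Ranvier, had log2 ratios of 0.39 ± 0.75 at probe b and -0.06 ± 0.47 at probe c (adjusted p = 0.499 and 0.905 by limma). Probe b, designed on an alternatively spliced long form, had 886, 844, 1988 and 602 in mucosa cells, against 827, 706, 721 and 719.7 in bulb cells. The mucosa value of array 3 was the high one, and without array 3 the ratio of probe b was 0.03 (adjusted p = 0.958 by limma, range over alternatives 0.326 to 0.958). Probe c had 665, 829.8, 946 and 513 in mucosa cells, against 1110.4, 765, 916 and 405 in bulb cells, with overlapping channels and mucosa below bulb on array 1 only. Its mean turned to 0.12 with median centring and to 0.17 without array 1 (adjusted p = 0.802 and 0.693 by limma). Probe a of Nrcam was well above background on 1 mucosa and 2 bulb arrays and was not tested.

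Nfasc, the neurofascin of nodes and of the glial loops beside them, had intensities of 78.2, 186, 129 and 101 in mucosa cells, against 177, 89.2, 226 and 124 in bulb cells. Its ratio was 1.06 on array 2 and below 0 on the other 3 arrays, and the mean was -0.31 ± 0.98 (SD, n = 4; adjusted p = 0.668 by limma). Without array 2 the mean was -0.76 (adjusted p = 0.286 by limma, range over alternatives 0.286 to 0.999). The ratio of Chl1, averaged over its probes, was below that of L1cam, Nrcam and Nfasc on all 4 arrays, with log2 differences of -2.21 ± 0.52, -2.58 ± 0.16 and -2.11 ± 1.00 (SD, n = 4). Each of these 3 differences had an exact sign-flip p of 0.125 (adjusted over the 3, 0.125), the smallest that 4 arrays allow, so the difference between the genes could not pass 0.05 in this design. Chl1 entered that comparison with its own call known.

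**Figure D2:**
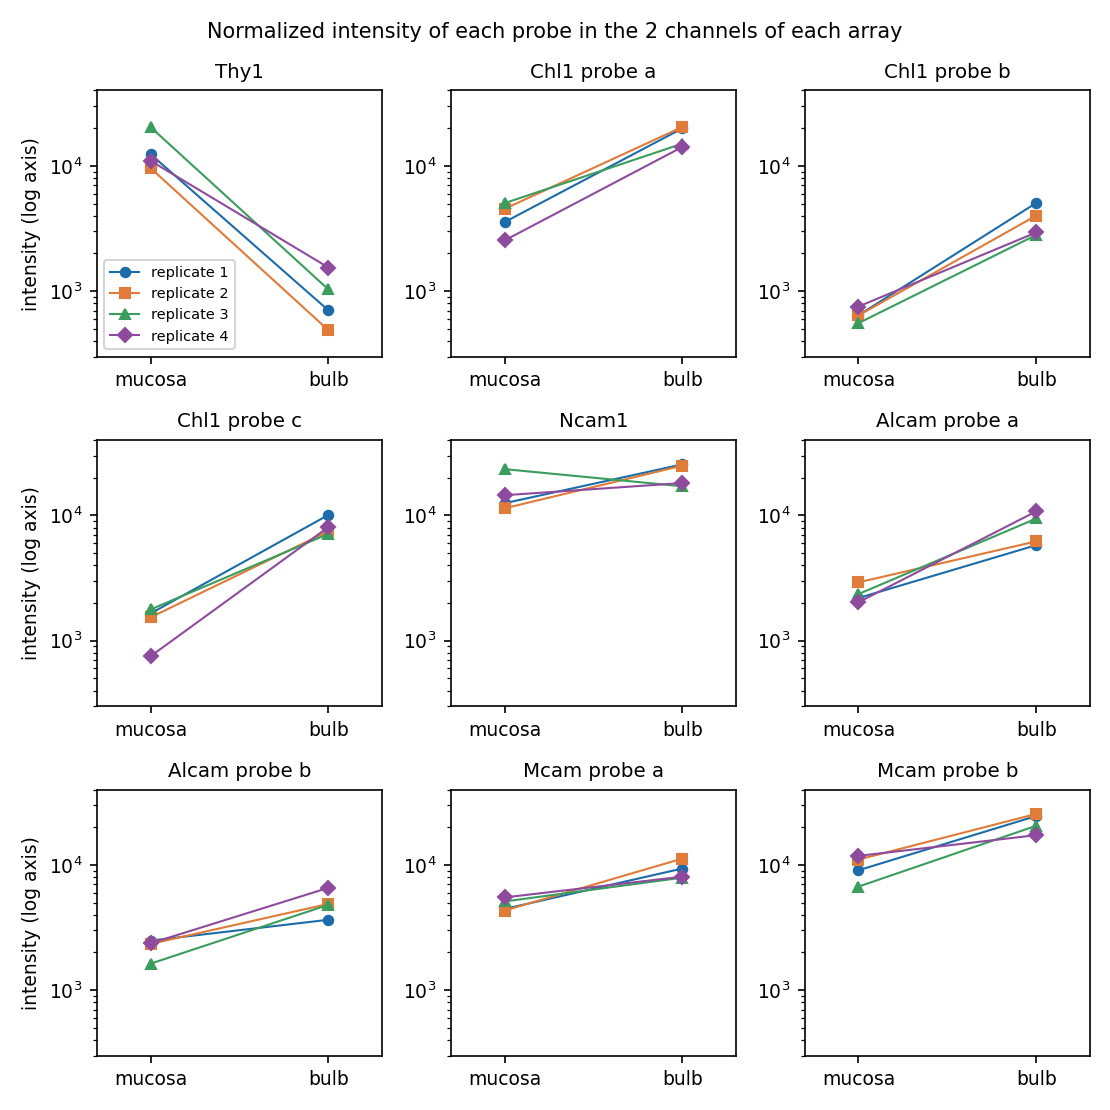
Intensity after loess and quantile normalization, on a log axis, of the probes of Thy1, Chl1, Ncam1, Alcam and Mcam in mucosa cells (left) and bulb cells (right), with a line for each array. The Thy1 lines descend toward bulb on all 4 arrays, the Chl1, Alcam and Mcam lines ascend on all 4, and of the Ncam1 lines only that of array 3 descends.

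Ncam1, the neural cell adhesion molecule that olfactory ensheathing cells are known to carry, was bright in both groups and did not pass. Its intensity was 12512, 11390, 23417 and 14496 in mucosa cells, against 25555, 24962, 17078 and 18139 in bulb cells. Mucosa was below bulb on arrays 1, 2 and 4 and above it on array 3, and the ranges of the channels overlapped. The log2 ratio was -0.51 ± 0.74 (SD, n = 4; 95% interval -1.27 to 0.26; adjusted p = 0.382 by limma). Without array 3 it was -0.83 (adjusted p = 0.195 by limma, range over alternatives 0.195 to 0.808).

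The Ncam1 probe was printed 10 times on each array. The log2 ratio over the 10 spots was -1.03 ± 0.044, -1.13 ± 0.079, 0.46 ± 0.029 and -0.32 ± 0.042 on arrays 1 to 4 (SD over spots). On array 3 all 10 spots lay between 0.42 and 0.51, and on the other arrays every spot was below 0. The probe spans 996 bases at chr8:52825923-52826918 on the minus strand of rn4, across an intron. A further probe, which the array design describes as a boundary between exons of rat neural cell adhesion molecule mRNA, lies outside the rule for members and was looked up after its values were seen. It had a log2 ratio of -0.25 ± 0.37 (SD, n = 4; adjusted p = 0.546 by limma), with array 3 again the only array above 0. The partner genes St8sia2 and St8sia4, which encode the enzymes that add polysialic acid to Ncam1 and were also singled out after their values were seen, had no call, with -0.25 ± 1.48 and 0.48 ± 0.27 (SD, n = 4; adjusted p = 0.811 and 0.235 by limma). A second St8sia4 probe was not well above background on any array.

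**Figure D3:**
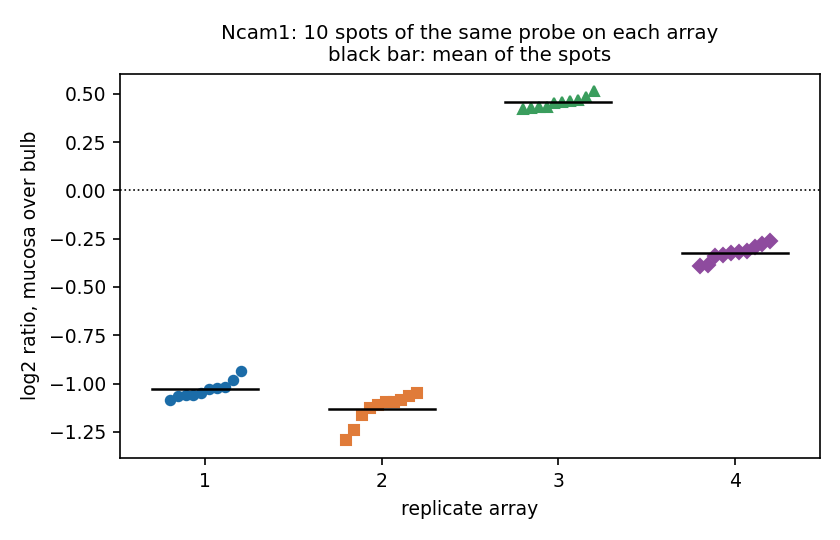
Log2 ratio, mucosa over bulb, of the 10 spots of the Ncam1 probe on each of the 4 replicate arrays, with a black bar at the mean of the spots. The spots of array 3 lie at 0.42 to 0.51 and those of the other arrays below 0, with means of -1.03, -1.13 and -0.32.

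Alcam, a receptor that binds itself and guides axons into bundles, was lower in mucosa cells at both of its probes. Probe a had intensities of 2191, 2923, 2357 and 2027 in mucosa cells, against 5792, 6209, 9449 and 10788 in bulb cells. Probe b had 2486, 2339.7, 1628 and 2365 in mucosa cells, against 3649, 4885, 4803 and 6565 in bulb cells. The channels did not overlap at either probe. The log2 ratio was -1.73 ± 0.59 at probe a and -1.16 ± 0.46 at probe b (SD, n = 4), or 3.31-fold and 2.24-fold lower, with adjusted p of 0.0212 and 0.0472 by limma. The call of probe a was lost without each of the 4 arrays in turn (adjusted p = 0.0556 to 0.0748 by limma). It held in the other settings (adjusted p = 0.00358 to 0.0442 by limma), with the highest value for the deposited log10 ratio. That of probe b was lost in 12 of 19 settings (adjusted p over all of them 0.0164 to 0.151 by limma). These were each array left out, the deposited log10 ratio (-1.20, 0.0790), the value table, the processed signals, median centring (0.0849), no background subtraction (0.0536), an offset of 16 (0.0593), no filter (0.0513) and the GC trend removed (0.0536). On rn4, probe a lies at chr11:49609330-49609496 and probe b at chr11:49629819-49629878, both on the plus strand.

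Mcam, an adhesion receptor best known from endothelial cells, pericytes and melanoma, was lower in mucosa cells at probe b and did not pass at probe a. Probe b had intensities of 9065, 11028, 6712 and 11808 in mucosa cells, against 24602, 25551, 20557 and 17288 in bulb cells. Probe a had 4449, 4318, 5108 and 5499 in mucosa cells, against 9359.5, 11233, 7915 and 8058 in bulb cells. The channels were apart at both probes, with mucosa below bulb on all 4 arrays. The log2 ratio was -1.20 ± 0.47 at probe b, 2.30-fold lower, and -0.91 ± 0.39 at probe a (SD, n = 4), with adjusted p of 0.0433 and 0.0765 by limma. The call of probe b was lost in 9 of 20 settings, among them each array left out (adjusted p = 0.0523 to 0.152 by limma), the deposited log10 ratio (0.0829), median centring (0.0865) and an offset of 16 (0.0547), while that of probe a was gained in 3 settings (range over alternatives 0.0171 to 0.261). Of 8 tested probes of smooth muscle and pericyte markers, 6 were higher in mucosa cells and 0 lower. The proteoglycan gene Cspg4 and the receptor gene Pdgfrb were among the higher ones. Rgs5, looked up after its values were seen, had -2.45 ± 2.29 (SD, n = 4) without a call (adjusted p = 0.137 by limma) and was below 0 on 3 of 4 arrays. Among endothelial markers 0 of 9 tested probes were higher and 1 was lower, a probe of the cadherin gene Cdh5. The median log2 ratio of the endothelial probes was 0.31, with a range of -1.57 to 1.51. Over all tested probes, 3.13% were called higher and 3.42% lower. Whether pericytes or endothelial cells had a part in the Mcam result was not tested.

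The contactins gave no call. Cntn1, which pairs with neurofascin beside nodes of Ranvier, had intensities of 155, 130.1, 146 and 154 in mucosa cells, against 141, 136, 139 and 148 in bulb cells. Its log2 ratio was 0.05 ± 0.080 (SD, n = 4; 95% interval -0.42 to 0.52; adjusted p = 0.896 by limma), and it turned to -0.15 with median centring in place of loess (adjusted p = 0.674 by limma, range over alternatives 0.674 to 0.960). Cntn2 cleared the background on 1 mucosa array and on 0 bulb arrays, so it was not tested. Its intensities were 74.8, 141, 72.6 and 65.2 in mucosa cells, against 68.1, 87.9, 79.3 and 72.9 in bulb cells, and the channels overlapped. The probes of Cntn2 and Nfasc lie 56.4 kb apart on chromosome 13 of rn4. The probes of Thy1 and Mcam lie 93.9 kb apart on chromosome 8 and had ratios of opposite sign on all 4 arrays.

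Most glial marker probes were also lower in mucosa cells, beside the lower calls of Chl1, Alcam and Mcam. Of 9 tested probes of ensheathing and Schwann glia, 1 was higher and 6 lower (11.1% and 66.7%), against 3.13% and 3.42% of all tested probes. The higher one was Gldn, at a log2 ratio of 1.87 ± 0.58 (SD, n = 4). The mean log2 level over the 9 probes lay between 10.09 and 10.46 on the mucosa channels, against 11.40 to 11.51 on the bulb channels. Every probe was well above background on at least 1 array in each group. The defining markers S100b, Ngfr and Sox10 had log2 ratios of -1.49 ± 0.13, -1.27 ± 0.23 and -1.87 ± 0.55 (SD, n = 4; adjusted p = 0.0119, 0.0213 and 0.0155 by limma). These defining markers were thus present in both groups, at a lower level in mucosa cells. The list joins ensheathing and Schwann glia, so these markers cannot tell the cell types apart. The part of glial cells in the calls of the adhesion genes was not tested.

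Among other adhesion genes of the immunoglobulin type, more probes were called lower than higher, but this depended on the setting. With median centring in place of loess, 3 were higher and 2 lower. Of 50 genes listed, 43 were on the array and 41 had a tested probe. Among their 52 tested probes 1 was higher and 5 were lower, or 1.92% and 9.62%, against 3.13% and 3.42% of all tested probes, and their median log2 ratio was -0.15. The contactin gene Cntn3 was higher in mucosa cells at 2.20 ± 0.23 (SD, n = 4; adjusted p = 0.00456 by limma), or 4.59-fold, but a second probe had 0.58 ± 1.01 without a call. Cxadr, the virus receptor of cell junctions, was lower at -2.58 ± 0.40 (adjusted p = 0.00428), with -2.51 ± 1.58 and no call at a second probe. The synaptic and glial adhesion genes Cadm1 (Igsf4a on the array) and Cadm4 (Igsf4c) were lower at -2.03 ± 0.35 and -1.34 ± 0.38 (adjusted p = 0.00701 and 0.0262 by limma). The nectin gene Nectin3 (Pvrl3) was lower at -1.12 ± 0.44 (adjusted p = 0.0497 by limma), with -0.68 ± 0.56 and no call at a second probe (adjusted p = 0.199). With arrays left out in turn Cadm4 and Nectin3 lost the call each time (adjusted p = 0.0532 to 0.120 and 0.103 to 0.145 by limma). They also lost it with the deposited log10 ratio (0.0605 and 0.0743) and median centring (0.0547 and 0.0635), in 8 and 13 of 20 settings in all.

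Genes whose products bind, modify or cut these adhesion molecules were lower more often than higher. Of 38 genes listed, 35 were on the array, with 51 tested probes, of which 2 were higher and 9 lower. That is 3.92% and 17.6%, against 3.13% and 3.42% of all tested probes. The median log2 ratio was -0.48, against -0.0040 over all tested probes. Over the alternative settings, lower calls numbered 4 to 13 and higher calls 0 to 3. Both higher genes encode partners of the L1 family: Gldn, the gliomedin that clusters Nfasc and Nrcam at nodes, had 1.87 ± 0.58, and the integrin gene Itgb3 had 1.83 ± 0.32 (SD, n = 4; adjusted p = 0.0168 and 0.00884 by limma). Without array 1 or array 2 neither of these passed (adjusted p = 0.0781 and 0.0759 for Gldn, 0.0542 and 0.0519 for Itgb3). The matrix ligands Ncan (Cspg3 on the array), Bcan and Tnc were lower at -5.05 ± 0.74, -3.44 ± 0.60 and -2.28 ± 0.46 (adjusted p = 0.00171, 0.00309 and 0.00676 by limma). Neurocan and tenascin-C bind Ncam1, L1cam or contactins in brain matrix. The receptor phosphatase gene Ptprz1, a ligand of contactins, and the growth factor gene Ptn, which binds it, were lower at -1.89 ± 0.66 and -3.91 ± 0.88 (adjusted p = 0.0193 and 0.00428 by limma). Ptprz1 was lost without array 1 or 2 (adjusted p = 0.0855 and 0.0685 by limma). The other probe of Ptprz1 had a smaller ratio of -0.43 ± 0.12 without a call. The other probes of Bcan had -0.68 ± 0.48 and -1.43 ± 0.88 (SD, n = 4), also without a call. For the called Bcan probe, 2 mucosa arrays had a signal well above background, so the size of its ratio rests on signals near background. The deposited log10 ratio gave -5.00 on the log2 scale for this Bcan probe (adjusted p = 0.00616 by limma, range over alternatives 0.00164 to 0.0313).

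**Figure D4:**
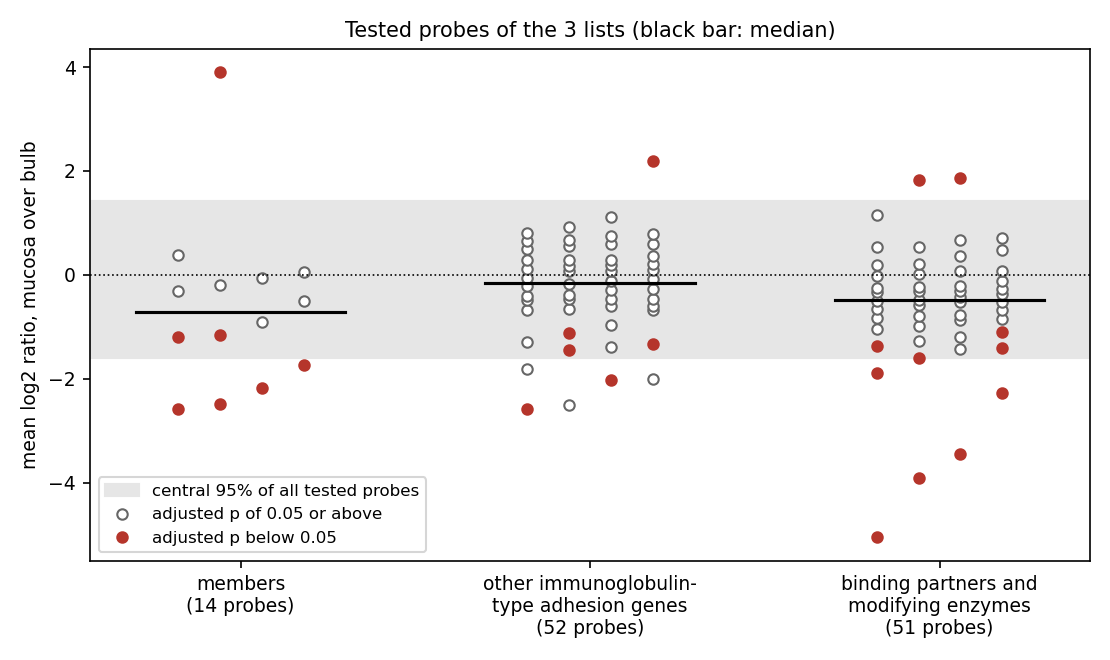
Mean log2 ratio, mucosa over bulb, of the tested probes of the 10 genes, of the other immunoglobulin-type adhesion genes and of their binding partners and modifying enzymes, with filled points for an adjusted p below 0.05, black bars for medians and a grey band for the central 95% of all tested probes (-1.60 to 1.42). Thy1 at 3.90 lies farthest above the band, Ncan at -5.05 farthest below it, and the medians of the lists are -0.71, -0.15 and -0.48.

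Across the whole array the 4 ratios of a probe had a common sign for 33.4% of the tested probes, and for 8 of the 14 tested member probes. Ratios of any pair of arrays, which share their dye orientation, correlated across probes with a Pearson r of 0.35 to 0.54, given as a description. Median raw signals were 567 to 842 in the mucosa channel and 342 to 382 in the bulb channel, and 82.8% to 91.1% of spots cleared the background. Precision is limited by having 4 arrays. With median centring in place of loess, 58.5% of the calls over all probes were higher in mucosa, against 47.8% here.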

How the data were processed

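Per the file headers, the deposited arrays were read with Agilent Feature Extraction 10.5.1.1, while the submitters' processing notes name 9.1. Spot and background signals were deposited as linear intensity values without normalization, and processed intensity signals after background subtraction and dye normalization, per the file headers. The deposited ratio is a log10 of Cy5 over Cy3, and the deposited values of the whole series are these same log10 ratios. Coordinates are of rn4, per the file headers. The extraction and labelling details beyond a global PCR are not given in the sources used here.

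In limma 3.58.1 (R 4.3.3, statmod 1.5.0), mean signals were background-corrected by normexp (offset 50) and loess-normalized within arrays, with control and outlier spots at weight 0. Replicate spots were averaged. The test took probes whose spots were well above background (a share of 0.5 or more) on 3 or more arrays in either channel. The mean log2 ratio was tested against 0 with lmFit and eBayes (6.36 degrees of freedom), adjusted over 36746 probes at 0.05. Channel intensities were taken after quantile normalization of the array averages, which leaves ratios as they are. Where nothing more is said of the source of a replicate, p-values measure the spread between these 4 arrays. The arrays were scanned together on 1 slide. The fit was tested on simulated ratios.

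Members, lists and settings were chosen with earlier results of these data known. Named genes were all members and, per list, up to 5 called genes in each direction, of which 1 is counted but not reported here. Of each marker list the counts were used. All of the first 3 genes are named for the glia and fibroblast lists only. Rgs5 and Gldn lie outside the first 3 of their lists. The lists not given in the report had, as higher and lower of tested probes, 0 and 2 of 8 (astrocytes), 0 and 2 of 8 (oligodendrocyte lineage), 0 and 0 of 8 (macrophages and microglia) and 0 and 1 of 2 (epithelium). Figures used Python 3.11.15, pandas 2.3.3, numpy 2.4.6 and matplotlib 3.10.9.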

Additional observations from a re-analysis of the deposited data

Results flagged for a closer look

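The log2 ratio of Thy1 on array 4, 2.83, lay far from the other 3 arrays, which were at 4.14, 4.30 and 4.31. Its gap to the nearest array was 0.889 of the range of the 4 values, above the critical value of Dixon's test at the 95% level. Of 29 probes examined in this way 1 passed that value, and chance alone passes it in about 5% of groups.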

How the results depend on the processing

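The 20 alternatives changed background, dye normalization, signals, filter, outlier and saturated spots, probe choice, variance model, array weights, pairing, GC trend and, in turn, each replicate. Thy1 and the 3 Chl1 probes kept direction and call in each one that tested them (Thy1 3.76 to 4.25). Over the member probes no call changed direction. Lower member calls, 6 in the main setting, numbered 4 with an offset of 16, median centring, the processed signals, the deposited ratio or the value table. They numbered 7 with the trended variance, array weights or without the replicate block. With the brightest probe per gene name, where a gene has 1 probe by construction, they numbered 3, as with any replicate left out. In the list of other adhesion genes, higher calls numbered 3 with median centring, 2 with array weights, 2 without the replicate block (channels as separate samples), 2 with the GC trend removed, and 1 to 2 with a replicate left out. Lower calls there numbered 3 with no background subtraction, an offset of 16 or no filter, 2 with median centring, the processed signals, the deposited ratio or the value table, 9 without the replicate block, and 2 to 4 with a replicate left out. Among partners, lower calls numbered 12 with the trended variance and 13 with array weights or without the replicate block. They numbered 5 with median centring and 4 to 6 with a replicate left out, where higher calls numbered 0 to 2. With 3 arrays the fit has fewer samples, and 1.68% to 3.35% of all tested probes were called, against 6.54% (10% without the replicate block). The design text states the pairing, and the correlation between channels of a spot was -0.051. Cntn2 and Nrcam probe a cleared the background on too few arrays to be tested. The Cntn1 and Nfasc probes were dim but well above background on all 4 arrays in both groups. Causes of other changes were not tested.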
